A study of Mus musculus with 6 samples.

Results

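The genes described here encode enzymes, and one partner of such enzymes, that methylate lysine 4 or lysine 36 of histone H3: Kmt2a, Kmt2b, Kmt2c, Kmt2d, Kmt2e, Setd1a, Setd1b, Setd2, Nsd1 and Men1. They are 10 of the 55450 genes of the GENCODE annotation used, and the rule that picks them is a list of names, drawn up with earlier results of these data known. For each gene, the window was the gene body plus 3 kb upstream of the annotated start, and the value was the share of that window lying under peaks of H3K79me2, histone H3 dimethylated at lysine 79. Peaks were called from ChIP-seq, the sequencing of immunoprecipitated chromatin, of the mouse neuroblastoma cell line N2a. Control cells (CTR) were transfected with a plasmid, pLKO.1, that carries a non-targeting short hairpin RNA, and NPM1 KD cells with the same plasmid carrying a hairpin against Npm1, the gene of the nucleolar protein nucleophosmin. Cells were collected after 3 days, and cells of the knockdown experiments were selected with puromycin from the day after transfection. Each group had 2 libraries, CTR 1 and CTR 2, NPM1 KD 1 and NPM1 KD 2, and the methods tie each biological replicate to its own passage of the line and its own batch of transfection. Each group had a single hairpin. A pooled input of each group had no peak list and entered no comparison, and the lists hold no measure of Npm1 RNA or protein, so the knockdown itself was not checked here. In what follows, values of single libraries are given for replicate 1 and then replicate 2 of each group.

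H3K4 and H3K36 methylation mark different parts of active genes. Trimethylated H3K4 sits at promoters and is written by the COMPASS family: SETD1A and SETD1B write much of it genome-wide, MLL1 and MLL2 (the products of Kmt2a and Kmt2b) at selected genes and together with menin (Men1), whereas MLL3 and MLL4 (Kmt2c and Kmt2d) are known for monomethylated H3K4 at enhancers. MLL5 (Kmt2e) belongs to the same family by name and domain, but its methyltransferase activity is in doubt. H3K36 is dimethylated by NSD1 and its relatives and trimethylated by SETD2, which travels with elongating RNA polymerase II. H3K79 methylation is placed by a different enzyme, DOT1L, from the start of transcribed genes into their bodies, and fusions of MLL1 that recruit DOT1L are a known cause of leukaemia. The comparison asks where H3K79me2 lay on the genes of these other methyltransferases, and whether its extent differed between CTR and NPM1 KD.

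The broad lists, which join neighbouring enrichment into domains, held 34845 to 48764 peaks per library. In total 236.1 and 223.4 Mb of the genome lay under CTR peaks and 253.2 and 244.4 Mb under NPM1 KD peaks, so the whole genome was covered more in both NPM1 KD libraries. The files hold no read counts. A relative depth, the median background pileup recovered from the narrow lists, was 11.9 and 7.65 with the control hairpin and 8.99 and 11.8 with the Npm1 hairpin, so each group held a deeper and a shallower library. CTR 2, the shallowest, had the lowest coverage of the 4 at 9 of the 10 genes, and NPM1 KD 1 was covered more than CTR 1 at 9 of the 10. The share of all windows with these orders was not counted, but their medians had the same order. Over the 18781 gene windows with a broad peak, median coverage was 50.4% and 46.3% in CTR and 55.6% and 52.3% in NPM1 KD. The part of depth in these differences and in those below was not tested. Of 9 markers of the neuroblastoma and sympathetic lineage, 8 had a broad peak in all 4 libraries (Dbh did not), and of 7 markers of other cells 0 had one.

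The promoter sequences of 3 genes are shown first, because at these genes the H3K79me2 domain began within the 300 bases around the start of transcription in at least 3 of the 4 libraries. RefSeq entries for such windows, 250 bases before to 50 after a start on GRCm38.p6, matched 6 of the 10 genes, all but Kmt2b, Kmt2e, Setd1b and Nsd1. Letters run 5′ to 3′ on the strand of the gene, and capitals mark the bases that lay under a broad peak in all 4 libraries. Men1 has 3 entries, of which the first is shown, chr19:6334729-6335028 on the plus strand. Setd2 lies at chr9:110532347-110532646 on the plus strand and Kmt2c at chr5:25498734-25499033 on the minus strand.
Men1: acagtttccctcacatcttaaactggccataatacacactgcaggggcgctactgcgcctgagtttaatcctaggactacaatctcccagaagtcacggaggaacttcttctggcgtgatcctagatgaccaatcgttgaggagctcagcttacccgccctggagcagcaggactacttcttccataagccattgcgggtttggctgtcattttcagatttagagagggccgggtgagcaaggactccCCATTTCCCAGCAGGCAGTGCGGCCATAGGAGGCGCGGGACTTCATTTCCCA
Setd2: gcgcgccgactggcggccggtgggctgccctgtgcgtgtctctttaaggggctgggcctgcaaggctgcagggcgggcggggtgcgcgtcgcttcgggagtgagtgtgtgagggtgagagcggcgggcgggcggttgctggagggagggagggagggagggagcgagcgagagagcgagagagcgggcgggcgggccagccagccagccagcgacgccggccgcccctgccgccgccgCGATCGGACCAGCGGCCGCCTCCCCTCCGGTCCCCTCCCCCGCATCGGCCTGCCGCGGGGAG
Kmt2c: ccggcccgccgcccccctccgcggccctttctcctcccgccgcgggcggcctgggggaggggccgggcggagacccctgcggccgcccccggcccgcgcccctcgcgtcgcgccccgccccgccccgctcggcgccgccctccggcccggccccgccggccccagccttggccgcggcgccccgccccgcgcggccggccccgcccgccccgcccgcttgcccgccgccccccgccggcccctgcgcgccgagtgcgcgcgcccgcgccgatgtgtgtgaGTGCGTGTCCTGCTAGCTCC
Of the 300 bases of Men1, 52 and 69 lay under a broad CTR peak and 95 and 72 under a broad NPM1 KD peak. At Setd2 these numbers were 135, 131, 300 and 62, and at Kmt2c 57, 20, 300 and 45. In all 3 windows the bases marked in every library were at the downstream end, and the upstream part carried the mark across its whole length only in NPM1 KD 1, and only at Setd2 and Kmt2c. The window of Kmt2d lay wholly under a peak in all 4 libraries, that of Setd1a in all but CTR 2 (246 bases) and that of Kmt2a in all but NPM1 KD 2 (117 bases).

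The 6 matched promoters differed in their content of the letters CG, which read the same on both strands. Kmt2c had 56 such pairs in 300 bases, a number reached by 0.195% of the 32851 windows of this length. Setd2 had 38 (reached by 4.95% of windows), Kmt2a 36 (6.23%), Setd1a 35 (6.95%) and Kmt2d 27 (15.5%). The first Men1 window had 11, a number reached by 41.4% of windows, against a median of 7 over all windows. The window of Kmt2c was 88.0% G or C and that of Men1 53.3%. The peak at the start of Men1 was thus found in all 4 libraries on a window with fewer CG pairs than those of the other 5 genes.

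H3K79me2 covered 9 of the 10 genes from at or near their start and left Nsd1 nearly bare. A start domain, the broad peak lying over the position 1 kb downstream of the annotated start, was present in all 4 libraries at every gene but Nsd1, where it was present in none; 41.0% of the 21951 protein-coding genes had one in all 4 libraries. In the order of their mean over the 4 libraries, Kmt2d had 98.6% of its window under broad peaks, Kmt2e 94.2%, Setd2 87.7%, Kmt2b 79.96%, Kmt2a 72.0%, Setd1a 61.9%, Setd1b 61.8%, Men1 61.2%, Kmt2c 59.9% and Nsd1 1.61%. Of the 9 pairs of neighbours in this order, 8 overlapped in the range of their 4 libraries. Within each single library, Kmt2d, Kmt2e, Setd2, Kmt2b, Kmt2a and Setd1a nevertheless stood in this same order. Setd1a, Setd1b, Men1 and Kmt2c changed places between libraries, so the order among them is not resolved. Kmt2c, whose lowest library was at 58.0%, and Nsd1, whose highest was at 2.29%, did not overlap. Among all 18781 gene windows that held a broad peak in any library, the level of Kmt2d stood at the 87.1 percentile and that of Nsd1 at the 4.89 percentile. Peak lists say how far called enrichment reaches, not how many reads or cells carry it, so fewer marked cells and less mark per cell cannot be told apart.

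**Figure D1:**
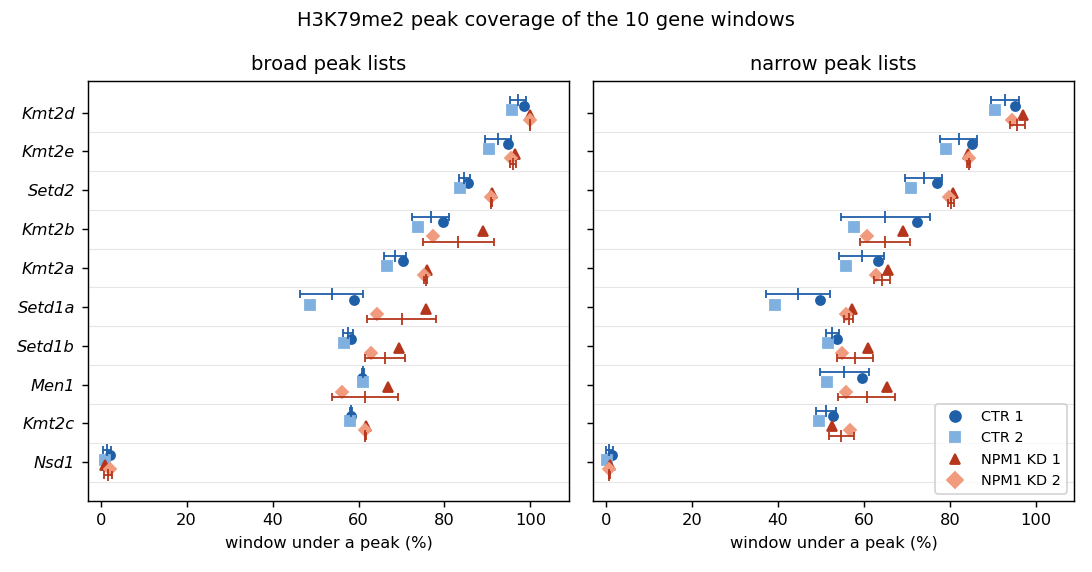
Percent of each gene window (gene body plus 3 kb upstream) under broad peaks (left) and narrow peaks (right) in each of the 4 libraries. Small bars give the mean ± SD (n = 2) of CTR above the points (blue) and of NPM1 KD below them (red). Nsd1 lies between 0.922% and 2.29% in the broad lists, and every other gene lies above 48%.

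Across the 10 genes, both NPM1 KD libraries were covered more than both CTR libraries in 7 (Kmt2a, Kmt2c, Kmt2d, Kmt2e, Setd1a, Setd1b and Setd2), less in 0, and the groups overlapped in 3 (Kmt2b, Nsd1 and Men1). Over all 18781 windows 38.7% had the first order and 3.14% the second, and among the 7132 protein-coding windows of 20 kb and longer these shares were 54.4% and 2.57%. The count at the 10 genes thus stands beside a background in which the same order was common. By a two-sided exact permutation test each of the 7 has p = 0.33, and no smaller value is possible with 2 libraries per group. Set against the CTR library of the same number, NPM1 KD was covered more for both numbers at 8 of the 10 genes, the 7 and Kmt2b, and less at 0 (51.7% and 6.26% of all windows), and at Nsd1 and Men1 the differences of the 2 numbers had opposite signs. The median difference of the 10 genes, NPM1 KD minus CTR, was 4.89 percentage points, against 1.85 over all windows and 2.29 over the long protein-coding ones. In the narrow lists 3 of the 10 genes had both NPM1 KD libraries higher (Setd1a, Setd1b and Setd2; background 35.9%) and 0 lower (4.44%), with a median difference of 4.10 points. Broad peaks with a −log10 q of 5 or more gave 4 genes higher (30.2%) and 0 lower (3.82%), and lists cut to the same number of peaks 6 higher (37.6%) and 0 lower (3.6%). Dividing each library by its total covered length changed the picture: 3 genes were then higher in NPM1 KD (Kmt2a, Setd1a and Setd1b; background 18.6%), 2 lower (Kmt2d and Kmt2e; background 37.9%), and the median difference was -0.35 points. A window that is already fully covered, as that of Kmt2d in NPM1 KD, cannot rise further on this measure.

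Covered length was also tested with limma across all 18781 windows, as log2(covered bp + 1000), and p-values were adjusted by Benjamini-Hochberg. At an adjusted p under 0.05 it called 5 windows, all higher in NPM1 KD (0.0266% of windows) and 0 lower, and 0 of the 10 genes were among them. The smallest adjusted p of the 10 was 0.194, for Kmt2c, whose log2 change was 0.08 ± 0.00686 (SE). At an unadjusted p under 0.05, limma counted 3 of the 10 (Kmt2a, Kmt2c and Setd2), beside 13.2% of all windows (2352 higher and 124 lower in NPM1 KD). With the replicate number as a block, limma called 0 windows (3035 at an unadjusted p under 0.05). The smallest adjusted p of the 10 genes was then 0.26, for Setd1a, and the unadjusted p of Setd1a was 0.00668 with the block and 0.117 without it. The median log2 change was 0.09 over the 10 genes and 0.06 over all windows. None of the differences described below therefore passed a test, and each is given by its values and by whether the groups overlapped.

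Kmt2a encodes MLL1, the enzyme that keeps Hox genes active and is broken in MLL-rearranged leukaemia. On GRCm38, as for all positions here, the gene spans chromosome 9, 44803355 to 44881296, on the minus strand. Its window was covered to 70.4% and 66.6% with the control hairpin and 75.9% and 75.3% with the Npm1 hairpin. The NPM1 KD values exceeded the CTR values, by 7.08 points between the means of 68.5% ± 2.64 and 75.6% ± 0.443 (SD, n = 2). By narrow peaks the groups did overlap, with 63.3% and 55.8% in CTR and 65.6% and 62.9% in NPM1 KD.

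The start domain of Kmt2a ended at almost the same base in every library. Its downstream edge lay 37215 and 37098 bp from the start with the control hairpin and 37180 and 37114 bp with the Npm1 hairpin, a range of 117 bp. All 4 positions fall in intron 5 of the longest coding transcript, which has 36 exons. The next broad peak began 1160 and 1261 bp further in CTR, against 1034 and 762 bp in NPM1 KD. The 300 bases around the edge, chr9:44843994-44844293 on GRCm38.p6 and the minus strand, are shown because the domain stopped inside them in all 4 libraries, with capitals again for bases under a broad peak in every library.
Kmt2a edge: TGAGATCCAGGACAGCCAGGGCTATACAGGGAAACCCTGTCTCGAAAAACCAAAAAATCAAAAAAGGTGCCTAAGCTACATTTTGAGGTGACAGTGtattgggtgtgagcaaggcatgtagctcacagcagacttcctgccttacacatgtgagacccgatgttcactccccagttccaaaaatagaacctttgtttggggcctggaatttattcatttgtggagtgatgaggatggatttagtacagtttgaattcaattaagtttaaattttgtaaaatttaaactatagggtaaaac
Repeats, as masked in the genome sequence, made up 37.7% of these bases, and 40.3% were G or C.

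Beyond the edge, coverage of Kmt2a broke into smaller domains and then ceased. Each gene body was also cut into 5 equal segments, numbered from the start. In segment 4 of Kmt2a coverage was 71.4% and 52.0% with the control hairpin and 76.8% and 71.9% with the Npm1 hairpin. The last base under a peak lay 64735 bp from the start in CTR 2 and at 65875, 65974 and 65960 bp in CTR 1, NPM1 KD 1 and NPM1 KD 2. At least 11967 bp at the end of the gene were thus free of peaks in all 4 libraries. The strongest narrow peak lay 567 to 658 bp from the start, with a fold over background of 38.6 and 35.6 with the control hairpin and 35.8 and 24.5 with the Npm1 hairpin.

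Kmt2b, the closest relative of Kmt2a, lies on chromosome 7, 30568858 to 30588726, on the minus strand. Its coverage was 79.7% and 73.8% with the control hairpin and 89.0% and 77.3% with the Npm1 hairpin. The groups overlapped, with CTR 1 above NPM1 KD 2, although the difference was 9.28 points between the libraries numbered 1 and 3.56 points between those numbered 2 (76.8% ± 4.19 against 83.2% ± 8.24; SD, n = 2). By narrow peaks the means were 65.0% and 64.9%. The reach of the start domain varied with the library, at 14680 and 9226 bp with the control hairpin and 17351 and 10167 bp with the Npm1 hairpin, and it did not separate the groups. The gene Zbtb32 overlaps the 3 kb upstream and 8.95% of the window lies in it.

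Men1 encodes menin, the scaffold that tethers MLL1 and MLL2 to chromatin and is lost in multiple endocrine neoplasia. It is the shortest of the 10 genes (5913 bp; chromosome 19, 6334979 to 6340891, plus strand) and carried a single broad peak in each library. Its coverage was 60.8% and 61.1% with the control hairpin and 66.8% and 56.1% with the Npm1 hairpin, so the NPM1 KD libraries lay on either side of CTR. The upstream edge of that peak was at -2 and -19 bp from the annotated start with the control hairpin and at -45 and -22 bp with the Npm1 hairpin, all within the promoter printed above. The groups did not overlap, but all 4 edges lay within 43 bp, and CTR 2 and NPM1 KD 2 nearly met. The share of all genes with this order of the upstream edge was not counted. The downstream edge lay at 5415 and 5428 bp in CTR, at 4973 bp in NPM1 KD 2 and, past the end of the gene, at 7919 bp in NPM1 KD 1. No base of the 3 kb upstream beyond that edge was covered in any library.

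Kmt2c, the gene of MLL3, is the longest of the 10 (226986 bp; chromosome 5, 25271798 to 25498783, minus strand). Its coverage was 58.3% and 58.0% with the control hairpin and 61.7% and 61.5% with the Npm1 hairpin. The groups did not overlap, at 58.2% ± 0.245 for CTR against 61.6% ± 0.126 for NPM1 KD (SD, n = 2), a difference of 3.42 points or 7864 bp. In the narrow lists they did overlap, at 52.9% and 49.6% in CTR and 52.7% and 56.9% in NPM1 KD.

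Most of the uncovered part of Kmt2c was common to all libraries. The start domain reached 90152 and 93763 bp into the gene with the control hairpin and 93545 and 94666 bp with the Npm1 hairpin, with overlapping groups. Segment 4 of the gene was nearly bare, at 4.23% and 4.26% in CTR and 7.16% and 5.34% in NPM1 KD. A separate domain then stood near the end of the gene in all 4 libraries, beginning between 197957 and 198274 bp and ending between 206110 and 206474 bp from the start. Its mean fold was 3.52 and 3.87 in CTR, then 3.38 and 3.47 in NPM1 KD, against 7.89 to 8.58 for the start domain. In the 34.3% of the window that no library covered, repeats made up 26.4% of bases, against 41.0% where all 4 libraries were covered.

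Kmt2d, the gene of MLL4 and a frequent target of mutation in Kabuki syndrome and in lymphoma, had the fullest coverage and the highest summit. It spans chromosome 15, 98831669 to 98871204, on the minus strand. Its coverage was 98.4% and 95.8% in CTR and 100% in both NPM1 KD libraries. The difference of 2.88 points was 1.57 without CTR 2 and 4.18 without CTR 1. Its strongest narrow peak had the highest fold of the 10 genes in every library, 51.1 and 48.9 with the control hairpin and 43.6 and 37.3 with the Npm1 hairpin. Fold depends on the library, so its percentile in its own list was also taken, and this was 99.81, 99.84, 99.79 and 99.87 in the same order, with the groups overlapping. The fold averaged over the whole start domain was higher at Kmt2a, at 10.4 to 10.9, than at Kmt2d, at 6.60 to 8.99.

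The CTR and NPM1 KD libraries differed at the end of Kmt2d. In both CTR libraries the last 474 to 500 bp of the gene were free of peaks, and another domain, over the neighbouring gene Prkag1, began 198 bp past the end in CTR 1 and 261 bp past it in CTR 2. In both NPM1 KD libraries a single domain ran through, from -3762 to 52687 bp relative to the start in NPM1 KD 1 and from -3139 to 50397 bp in NPM1 KD 2. Prkag1, which encodes a subunit of AMP-activated kinase and starts 147 bp from the end of Kmt2d, was covered to 59.0% and 59.1% in CTR and 78.4% and 71.3% in NPM1 KD. The window of Prkag1 also holds 3 kb upstream, so it takes in the end of Kmt2d and the gap seen there in CTR. The fold averaged over the start domain was lower in NPM1 KD (7.82 and 6.60) than in CTR (8.67 and 8.99), over domains that were longer.

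Kmt2e, the gene of MLL5, lies on chromosome 5, 23434441 to 23504235, on the plus strand. Its coverage was 94.7% and 90.3% with the control hairpin and 96.4% and 95.4% with the Npm1 hairpin, so the groups did not overlap and differed by 3.46 points (92.5% ± 3.09 and 95.9% ± 0.705; SD, n = 2). The difference was 1.28 points without CTR 2 and 5.65 points without CTR 1. Its domain was the longest upstream of a start, with its upstream edge at -29702 and -29568 bp with the control hairpin and -29805 and -29606 bp with the Npm1 hairpin, a range of 237 bp. The divergent gene 5031425E22Rik begins 171 bp upstream on the other strand and carried 61.5% to 64.8% coverage, so the upstream part of the domain lies on another gene.

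Setd1a, a writer of trimethylated H3K4, showed the largest difference of the 10 genes. It spans chromosome 7, 127776670 to 127800122, on the plus strand. Its coverage was 58.9% and 48.6% with the control hairpin and 75.7% and 64.3% with the Npm1 hairpin. The NPM1 KD values were above the CTR values throughout, 16.3 points apart in the means (53.8% ± 7.27 and 70.0% ± 8.05; SD, n = 2), and each group was itself spread over more than 10 points. Between libraries of the same number the difference was 16.8 and 15.7 points. With 1 library left out it was between 10.6 points (without NPM1 KD 1) and 22.0 points (without NPM1 KD 2). The limma log2 change was 0.36 ± 0.15 (SE), with an adjusted p of 0.492. In the narrow lists the order was the same, at 49.9% and 39.4% in CTR and 57.3% and 55.8% in NPM1 KD.

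The added coverage of Setd1a lay upstream and in the middle of the gene. The 3 kb upstream were covered to 68.0% and 39.5% in CTR but to 75.7% and 73.3% in NPM1 KD. Segment 3 was covered to 49.6% and 54.2% with the control hairpin and 81.1% and 97.25% with the Npm1 hairpin. The start domain ended at 11040 and 11724 bp in CTR but at 13185 and 13941 bp in NPM1 KD. Segment 4 was covered to 75.0% in NPM1 KD 1 alone, against 16.0%, 0% and 11.1% in CTR 1, CTR 2 and NPM1 KD 2. Of this window, 60.5% also lies in the annotated genes Orai3 or Gm49388, so peaks there cannot be given to Setd1a alone. Orai3 lies 1519 bp from Setd1a and shares only part of the 3 kb upstream, so most of this overlap is with Gm49388. The coverage of Gm49388 was not looked at separately. Orai3, a calcium channel gene that begins upstream, had 61.4%, 53.7%, 58.9% and 55.1% coverage in the 4 libraries in the same order, and its groups overlapped.

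Setd1b, the paralogue of Setd1a, spans chromosome 5, 123142193 to 123168629, on the plus strand. Its coverage was 58.3% and 56.6% with the control hairpin and 69.5% and 62.9% with the Npm1 hairpin. The groups did not overlap and differed by 8.72 points (57.5% ± 1.165 and 66.2% ± 4.67; SD, n = 2), and they did not overlap in the narrow lists either. Without NPM1 KD 1 the difference was 5.42 points. The 3 kb upstream and segments 1 and 2 were fully covered in all 4 libraries, and the difference lay beyond them. Segment 3 was covered to 50.4% and 45.0% in CTR and 85.9% and 76.9% in NPM1 KD, and segment 5 to 0% in every library. The start domain ended at 11632 and 10927 bp in CTR but at 12332 and 12718 bp in NPM1 KD, and its upstream edge lay between -11796 and -10948 bp, beyond the gene AI480526, which begins 526 bp away on the other strand and was 100% covered in all 4 libraries.

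Setd2, the H3K36 trimethylating enzyme and a tumour suppressor of kidney cancer, lies on chromosome 9, 110532597 to 110618633, on the plus strand. Its coverage was 85.5% and 83.7% with the control hairpin and 91.0% and 90.8% with the Npm1 hairpin. The groups did not overlap and differed by 6.32 points (84.6% ± 1.29 and 90.9% ± 0.0826; SD, n = 2). The narrow lists gave the same order, at 77.0% and 70.9% in CTR and 80.8% and 79.7% in NPM1 KD.

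Setd2 was marked along its whole body, in pieces. Its start domain ended at 29376 and 30039 bp with the control hairpin and 30108 and 29575 bp with the Npm1 hairpin, a range of 732 bp. A second large domain followed, beginning at 40036 and 38327 bp with the control hairpin and at 37724 and 40019 bp with the Npm1 hairpin. It ended between 58927 and 59888 bp in all but NPM1 KD 2, where it ran on to 79782 bp. Segments 2 and 3 of the gene share the gap between both domains. Segment 2 was covered to 75.7% and 79.9% in CTR and 87.7% and 89.8% in NPM1 KD, and segment 3 to 87.7% and 88.6% in CTR and 93.5% and 93.8% in NPM1 KD. In the 3 kb upstream coverage was 10.7% and 12.7% in CTR and 46.9% and 39.9% in NPM1 KD, although in NPM1 KD 2 the start domain itself began only 12 bp before the start. The strongest narrow peak of Setd2 had a fold of 21.3 and 25.1 in CTR and 20.03 in both NPM1 KD libraries.

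Nsd1, the H3K36 dimethyltransferase whose loss causes Sotos syndrome, stood apart from the other 9 genes. It spans 108544 bp of chromosome 13, 55209782 to 55318325, on the plus strand. Its coverage was 2.15% and 0.922% with the control hairpin and 1.06% and 2.29% with the Npm1 hairpin, so the groups overlapped. None of its 5 annotated coding transcript starts lay under a broad peak in any library, and segments 1 to 3 of the gene and the 3 kb upstream were at 0% in all 4. The nearest broad peak upstream of the start was 17098 to 17212 bp away, and the first one downstream lay 68719 to 69470 bp into the gene in CTR 1, CTR 2 and NPM1 KD 2 and 106226 bp into it in NPM1 KD 1.

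What H3K79me2 there was on Nsd1 came from small peaks in its last segments and from a domain that enters its 3′ end from the neighbouring genes. The small peaks covered 1027 and 778 bp of the gene in CTR, against 376 and 1553 bp in NPM1 KD. The domain reached 1374 and 250 bp into Nsd1 with the control hairpin and 808 and 1003 bp with the Npm1 hairpin, and 9038 to 11395 bp beyond it, with a fold of 7.57 to 8.14. It lay over Rab24, a small GTPase gene that ends 1417 bp from Nsd1 and was 100% covered in all 4 libraries, and over Prelid1. Only 250 bp of the Nsd1 window were covered in every library, and 96.0% of it in none. Fgfr4, the nearest coding gene upstream, was at 0% in all 4 libraries. The share of repeats in the Nsd1 window, 34.0%, was close to that of Kmt2c (34.8%) and Setd2 (32.3%), and its sequence held no undetermined bases. How well reads can be placed in the Nsd1 window was not tested, and the reads of the inputs were not analysed here.

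Set side by side, the downstream edge of the start domain separated the groups at 3 of the 9 genes that had one. It lay farther from the start in both NPM1 KD libraries at Kmt2d, Setd1a and Setd1b and nearer at 0, beside 39.3% and 5.39% of the 9002 protein-coding genes with such a domain. The difference of the means was 14754 bp at Kmt2d, 2181 bp at Setd1a and 1246 bp at Setd1b. The value of Kmt2d includes the joining of neighbouring domains, because in CTR the separate domain over Prkag1 already reached 48255 and 49975 bp. At Kmt2a the difference of the means was 9.5 bp in the other direction, within a spread of 82.7 bp in CTR. The median over the 9 genes was 1648 bp, against 335 bp over the 9002.

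**Figure D2:**
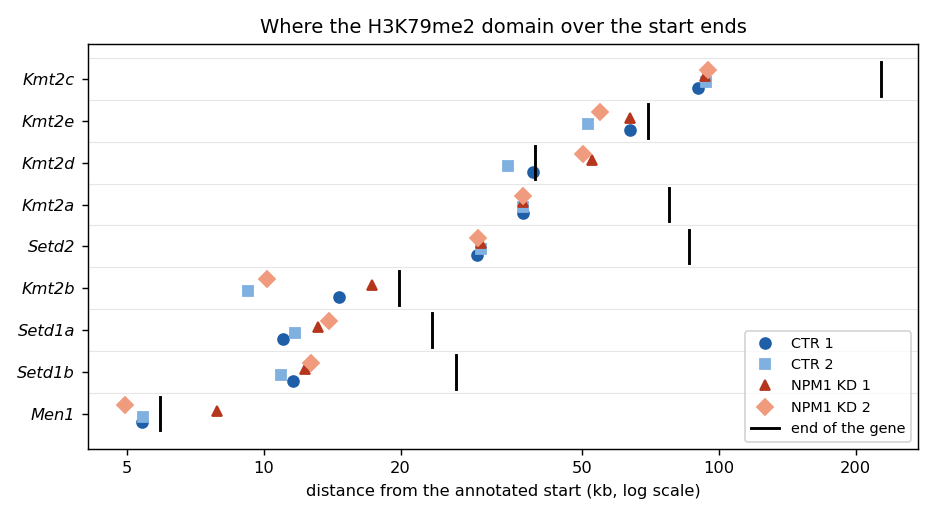
Distance from the annotated start to the downstream edge of the start domain, in kb on a log scale, for the 9 genes with such a domain; each point is a library and the black mark is the end of the gene. The 4 libraries fall together at Kmt2a and Setd2, and both NPM1 KD libraries lie to the right of both CTR libraries at Kmt2d, Setd1a and Setd1b.

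Taking all 10 windows base by base, little was marked in one group only. Bases covered in both NPM1 KD libraries and in neither CTR library made up 3.66% of the window at Setd1a, 3.04% at Kmt2a, 2.76% at Setd2, 2.65% at Setd1b and 2.26% at Kmt2b, and less at the other 5 genes. Bases covered in both CTR libraries and in neither NPM1 KD library amounted to 474 bp at Kmt2c, 213 bp at Setd2 and 0 bp at the other 8. Such bases were not counted over all windows, and both NPM1 KD libraries covered more of the whole genome than both CTR libraries.

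The height of the mark was taken from the fold and from its rank. The percentile of the strongest narrow peak within its own list lay between 94.8 and 99.87 at the 9 genes other than Nsd1, and the groups overlapped at all 9. These values lie near the top of the scale, and windows of like rank were not compared separately. Over 10895 protein-coding windows of any rank, both NPM1 KD libraries were higher in 35.6% and lower in 4.95%. The fold itself was lower in both NPM1 KD libraries at Kmt2d, Setd1a and Setd2 (background 27.2%) and higher at 0 (9.05%). NPM1 KD 2 had the lowest fold at 8 of the 9 genes, as it did at 62.0% of those windows. The fold averaged over the start domain was lower in both NPM1 KD libraries at 4 of 9 genes, Kmt2a, Kmt2d, Setd1a and Men1 (background 39.0%), and higher at 0 (9.73%). Ranked within its own list, the start domain stood higher in both NPM1 KD libraries at Kmt2a (29.2% of genes) and lower at Setd1a (3.98%). At Setd1a the percentiles were 91.41 and 90.85 in CTR and 90.84 and 90.31 in NPM1 KD, so CTR 2 and NPM1 KD 1 were almost equal. At Kmt2a they were 98.11 and 97.34 in CTR and 98.54 in both NPM1 KD libraries. At Setd1a the fold was 6.23 and 7.04 in CTR and 5.98 and 5.51 in NPM1 KD. At Men1, with one compact peak, it was 7.97 and 8.202 in CTR and 6.93 and 6.78 in NPM1 KD. At Nsd1 the strongest peak with its summit inside had a fold of 2.17 in CTR 1, CTR 2 had none, and the NPM1 KD libraries had 2.40 and 2.03.

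**Figure D3:**
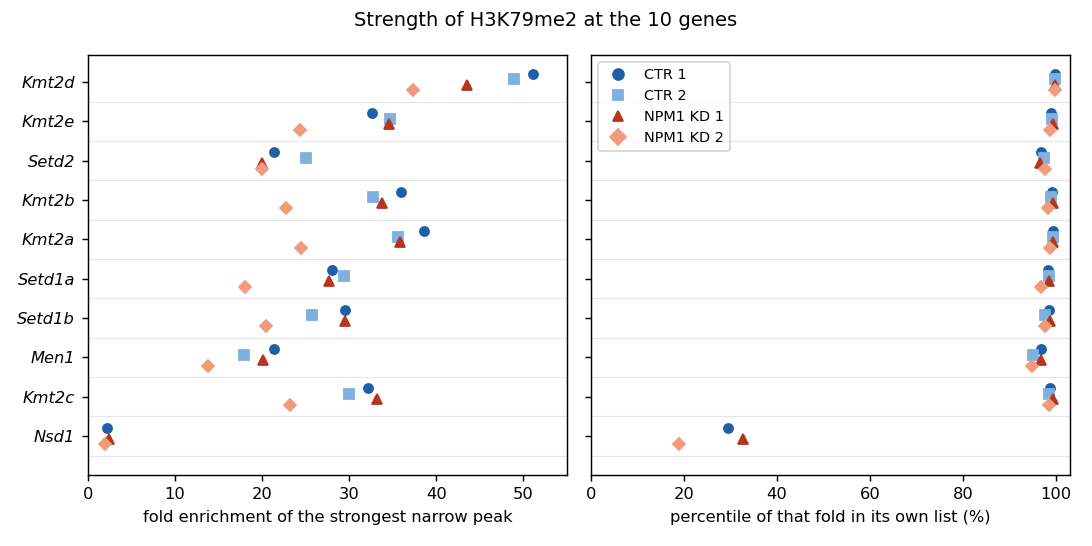
Fold over background of the strongest narrow peak with its summit in each window (left) and the percentile of that fold among all narrow peaks of the same library (right); each point is a library. NPM1 KD 2 has the lowest fold at 8 of the 9 marked genes, whereas the percentiles of the groups overlap at all 9, and Nsd1 has no such peak in CTR 2.

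The 32 related genes, further COMPASS subunits, other H3K4 or H3K36 methyltransferases and the demethylases that remove these marks, gave a similar picture. Both NPM1 KD libraries were covered more in 18 of them and less in 0 (background 38.7% and 3.14%), with a median difference of 2.68 points, and in the narrow lists 16 were covered more and 0 less (35.9% and 4.44%). After scaling to the total covered length 7 were covered more and 12 less (18.6% and 37.9%). By class, 7 of 13 COMPASS subunits, 4 of 9 other methyltransferases and 7 of 10 demethylases were covered more. In the limma fit 0 of the 32 passed the threshold, the smallest adjusted p was 0.175, and 6 had an unadjusted p under 0.05, all higher in NPM1 KD, as were 2352 of the 2476 windows at this threshold (13.2% of all windows).

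Those of the 32 with the largest differences were 2 demethylases and an H3K36 methyltransferase. Kdm5a, a demethylase of trimethylated H3K4, was covered to 55.3% and 50.2% in CTR and 69.5% and 67.2% in NPM1 KD, a difference of 15.5 points. Kdm4a, which removes methyl groups from H3K9 and H3K36, was covered to 48.15% and 45.5% in CTR and 61.1% and 53.0% in NPM1 KD. Nsd3, a paralogue of Nsd1, was covered to 82.9% and 78.4% in CTR and 90.9% and 88.5% in NPM1 KD. Within the NSD family, Nsd3 and Nsd2, at 87.7% in CTR and 92.1% in NPM1 KD on average, thus carried the mark over most of their windows, and Nsd1 carried it over less than 3%. Among the other methyltransferases the germline gene Prdm9 was at 6.92% to 7.52%, and Setmar had a broad peak in NPM1 KD 1 alone.

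**Figure D4:**
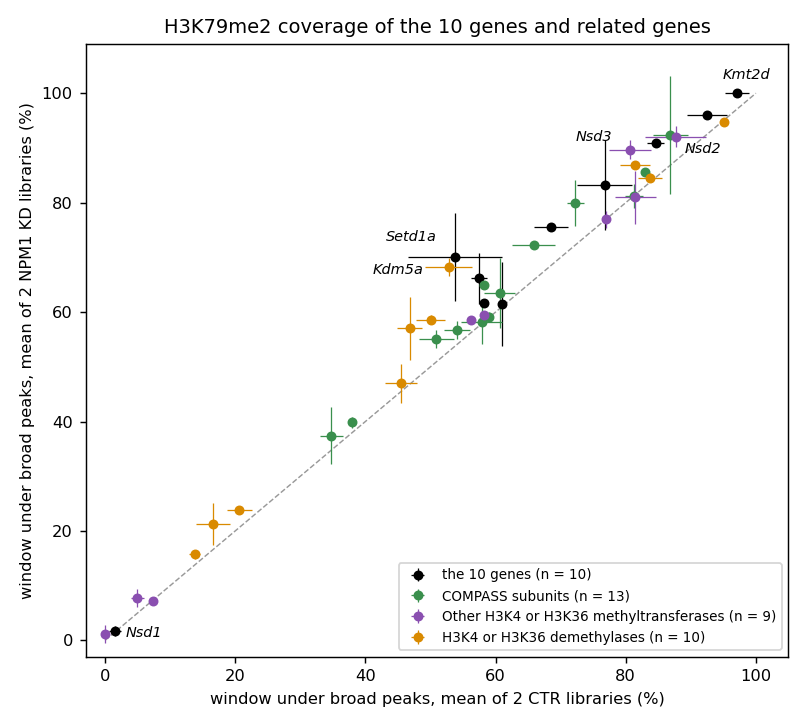
Percent of the window under broad peaks, mean of the CTR libraries on the horizontal axis and mean of the NPM1 KD libraries on the vertical axis, for the 10 genes and 32 related genes by class; error bars are the SD (n = 2 libraries) and the dashed line marks equal coverage. Most points lie on or above the line, with Setd1a and Kdm5a farthest from it, and Nsd1 lies near the origin, apart from Nsd2 and Nsd3.

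For the 3 genes with the largest differences, the protein-coding gene with the most similar pattern over 8 values, the coverage in 4 libraries and both kinds of list, was looked up among genes of similar window length. Setd1a was most like Hspbp1, the gene of a co-chaperone, with 61.8% and 51.9% in CTR and 72.3% and 69.4% in NPM1 KD and a largest difference of 5.91 points from Setd1a among 3074 candidates. Setd1b was most like Mxra7, with a largest difference of 3.90 points, and Kmt2a was most like the zinc finger gene Rlf, with one of 3.22 points.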

How the data were processed

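H3K79me2 ChIP-seq was made in 2 CTR and 2 NPM1 KD libraries of N2a cells. As the methods of the study and the submitters' processing notes state, paired-end reads were aligned to mm10 (GRCm38) with Bowtie2 (version 2.3.4.1). By the same sources, reads with a mapping quality above 5 were kept and peaks were called with MACS2 in each library on its own. The notes give MACS2 version 2.2.6, whereas the methods name a different version. The role of the inputs in calling is not given in the sources used here. The authors deposited 1 narrow and 1 broad list per library. The deposited score is 10 times the −log10 q of a peak, cut to a whole number, and was not analysed further. The deposited fold is the ratio of pileup to background, at the summit of a narrow peak and averaged over a broad one. The deposited −log10 p and −log10 q were given by MACS2 within each library.

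From these lists the covered length of every gene window of the mouse GENCODE release M21 was computed with Python 3.11.15, NumPy 2.4.6 and pandas 2.3.3. Groups were compared by whether their libraries overlapped, by a two-sided exact permutation test per gene, which cannot give a p below 0.33, and by a moderated linear model (limma 3.58.1, R 4.3.3) of log2(covered bp + 1000) over windows with a broad peak in at least 1 library. The median background pileup was solved from the fold and −log10 p of narrow peaks up to a −log10 p of 250 (SciPy 1.17.1), which gave whole pileups within 0.02. The methods give each biological replicate its own passage and transfection batch, and CTR 1 and NPM1 KD 1 (and likewise CTR 2 and NPM1 KD 2) could stem from one batch; their deviations from the group means correlated at 0.195 over 18781 windows, and the fit was also made with the number as a block. The covered length, the limma fit and the background pileup were tested on simulated data, and the other steps were not. The 10 genes, the related genes and the markers were chosen with earlier results of these data known. One marker is not reported here. The genes named are the 10, the 3 related genes per direction with the largest difference among those whose groups do not overlap (none was lower), the most similar gene for 3 of the 10, and neighbours that share their peaks; Nsd2, Prdm9 and Setmar were named after their values were seen. Alternatives were narrow lists, a −log10 q minimum of 5, lists of equal size (34845 peaks), the gene body alone, scaling to total covered length, other filters and pseudocounts, a replicate block, and leaving out each library.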

Additional observations from a re-analysis of the deposited data

How the results depend on the processing

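The count of 7 of the 10 genes covered more in both NPM1 KD libraries was 3 in the narrow lists, 4 with a −log10 q minimum of 5, 3 after scaling to total covered length, 6 at equal list size, 7 in the gene body alone and 7 to 9 without single libraries, beside 43.5% to 62.8% of all windows. With 3 libraries the order is a looser rule, so counts of genes whose groups do not overlap can only stay or rise, and these ranges say nothing of stability. The count covered less was 2 after scaling (Kmt2d and Kmt2e), and between 0 and 1 without single libraries, the 1 being Men1 without NPM1 KD 1. The median difference of 4.89 points was -0.35 after scaling, which by construction removes the larger total covered length of NPM1 KD, 6.32 without Nsd1 (chosen after seeing the data), and 3.15 to 6.44 without single libraries. The number of windows past the limma threshold, 5, was 0 in the narrow lists, 83 with the stricter broad peaks, 0 at equal list size, 81 in the gene body alone, 0 after scaling, 22 with a pseudocount of 200 bp, 0 with a peak required in all 4 libraries, 18 with no filter (where limma warned of many windows with a variance of 0), 1 among protein-coding genes and 0 without any single library. At an unadjusted p under 0.05, limma counted 1769 to 3207 windows in the settings with 0 calls. The cause of these shifts was not tested. In each of these fits 0 of the 10 genes passed. With a replicate block, limma called 0 windows and no other call changed; the median difference is 4.89 points in both designs, which are balanced. The alternatives for the related genes and the downstream edge, and the comparison with long protein-coding windows, were also chosen after seeing the data, as was the comparison within replicate numbers. Of the related genes 7 were covered more after scaling, and 19 to 28 without single libraries, the 28 without NPM1 KD 2. The downstream edge lay farther in NPM1 KD at 4 to 7 of 9 genes without single libraries (6 without CTR 1, 5 without CTR 2 and 7 without NPM1 KD 2), beside 49.6% to 63.3% of genes. Of 90 values of single genes under 9 alternatives, 75 moved by less than the spread between replicates. Leaving out 1 of the 2 libraries of a group cannot move a value by more than that spread. That part of the count therefore says nothing of stability. With 2 libraries per group the exact permutation test of a single gene cannot give a p under 0.33, and depth is known only as a relative value.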
